A study of Mus musculus with 3 samples.

Results

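miR-107 and miR-103 are near-identical microRNAs (miRNAs, small regulatory RNAs that silence messenger RNAs) made from introns of the pantothenate kinase genes. Their rows were taken by name from a table of 1251 mature mouse miRNAs, as any row called miR-103 or miR-107 with an arm or no suffix. The rule found 3 rows, miR-107-3p, miR-103-3p and miR-107-5p, and the 2 rows for the 5p strands of the miR-103 hairpins were added because they come from the same precursors. The table holds small RNA sequencing of visceral white fat, the epididymal depot, of 3 C57BL/6J mice numbered 1, 3 and 9. All had eaten a high-fat diet with the fish-oil lipid eicosapentaenoic acid (EPA). Fat supplied 45% of energy, protein 20% and carbohydrate 35%, and EPA was given as 6.75%. The mice began at 5 to 6 weeks of age, ate the diet for 11 weeks and were fasted for 4 h before the tissue was taken. The design set out to list the miRNAs that this fat expresses. Only this diet was analysed here, so no value measures an effect of EPA or of fat. The sample titles, with a statement of 3 samples per group, are all that marks the samples as separate animals, so the spread between them may be partly technical.

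The 3 pantothenate kinases that host these miRNAs catalyse the first and controlling step of coenzyme A synthesis, on which fatty acid synthesis and oxidation depend. In mice, miR-107 and miR-103 are known to lower insulin sensitivity: raising them in liver or fat impairs glucose handling, and silencing them improves insulin action. A described direct target is Cav1, the gene of caveolin-1, a membrane protein that stabilises the insulin receptor in the caveolae of adipocytes. Both are also known to repress Dicer, the enzyme that cuts miRNA precursors. Target messenger RNAs and proteins were not measured here.

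The mature strands are shown because a single base separates the pair. The sequences are RefSeq's on build GRCm38.p6, with the seed, bases 2 to 8 from the 5′ end, in capitals.
miR-107-3p: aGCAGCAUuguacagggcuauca
miR-103-3p: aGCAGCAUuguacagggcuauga
Relative to miR-103-3p, miR-107-3p carries G22C, counted from 1 at the 5′ end of 23 bases. The seeds are identical, so target choice by the seed does not separate them. Among 1679 mature mouse miRNA names in RefSeq, these 2 were the only ones with this seed and the only ones to hold the first 21 bases. A sequencing read that ended at or before base 21 would fit both. How the authors' pipeline assigned such reads is not given in the sources used here, which limits how exactly the 2 rows divide the reads.

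The hairpins lie in matching places of their host genes. The precursor strands are printed with the 5p and 3p mature arms in capitals, the 5p arm first.
Mir107: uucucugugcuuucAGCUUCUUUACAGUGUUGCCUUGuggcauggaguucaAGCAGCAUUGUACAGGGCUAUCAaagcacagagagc
Mir103-1: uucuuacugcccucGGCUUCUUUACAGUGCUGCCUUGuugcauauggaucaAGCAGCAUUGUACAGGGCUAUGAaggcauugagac
Mir103-2: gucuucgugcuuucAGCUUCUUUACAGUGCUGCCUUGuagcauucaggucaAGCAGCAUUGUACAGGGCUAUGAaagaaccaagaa
Mir107 lies at chr19:34820687-34820773 on the minus strand of GRCm38, in intron 5 of Pank1. Mir103-1 lies at chr11:35782396-35782481 on the plus strand, in intron 5 of Pank3. Mir103-2 lies at chr2:131288052-131288137 on the plus strand, in intron 5 of Pank2. In GENCODE M21 the longest coding transcript of each host has 7 exons, and each hairpin is on the strand of its host. Mir107 matched Mir103-2 at 83.9% of aligned bases and Mir103-1 at 80.5%, while the 2 miR-103 hairpins matched each other at 80.2%. The 2 miR-103 hairpins give the same 3p strand, so the miR-103-3p row sums both and cannot say how much came from Pank3 or Pank2.

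The miR-107 strand was the minor partner of the pair in every mouse. miR-107-3p had deposited log2 normalized values of 9.80, 10.08 and 9.15 in mice 1, 3 and 9. Those of miR-103-3p were 13.56, 13.69 and 14.18. The 2 strands did not overlap, and mouse 9 had both the lowest miR-107-3p and the highest miR-103-3p. The floor of the table is 3.32 log2 units, a linear value of 10 that was taken as 0, and both strands lay well above it. On the linear scale with that constant removed, miR-107-3p had 884, 1072 and 557 normalized counts in mice 1, 3 and 9, and miR-103-3p had 12103, 13187 and 18558. Averages were 838 ± 260.5 normalized counts for miR-107-3p and 14616 ± 3457 for miR-103-3p (SD, n = 3).

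**Figure D1:**
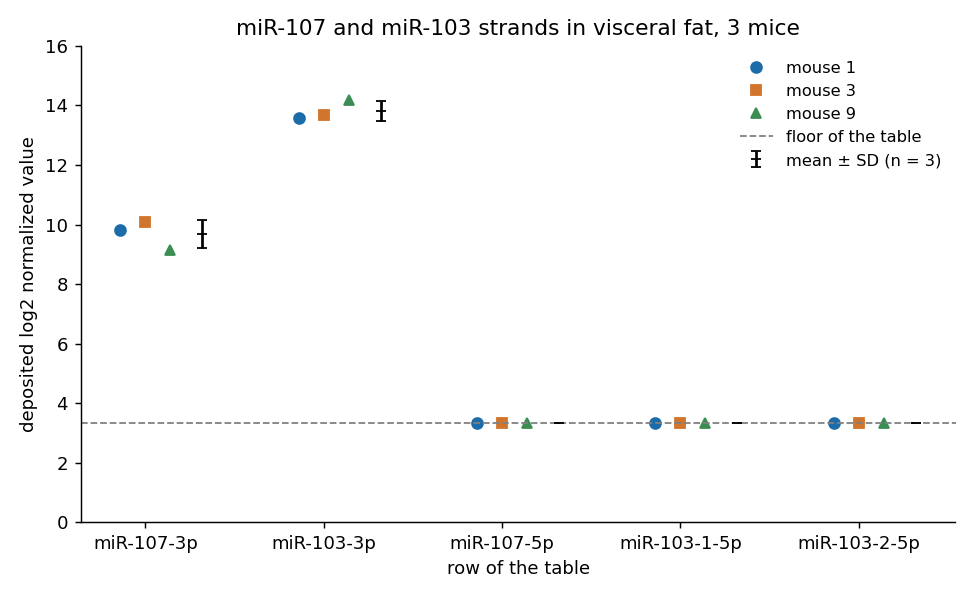
Deposited log2 normalized value (y axis) of each strand of the miR-107 and miR-103 hairpins (x axis) in mice 1, 3 and 9, with the mean and SD beside the points and the floor of the table as a dashed line. miR-107-3p lies between 9.15 and 10.08 and miR-103-3p between 13.56 and 14.18, while the 3 rows of 5p strands lie on the floor.

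miR-107-3p minus miR-103-3p came to -3.76, -3.61 and -5.03 in mice 1, 3 and 9, with a mean of -4.13 ± 0.78 log2 units (SD, n = 3). miR-107-3p was lower in 3 of 3 mice. The two-sided exact sign-flip permutation test gave p = 0.25, the smallest p this test allows with 3 mice, so it cannot pass 0.05. The gap exceeded the spread of either strand between mice, which was 0.48 for miR-107-3p and 0.33 for miR-103-3p (SD, log2 units). miR-107-3p made up 6.81%, 7.52% and 2.91% of the summed pair in mice 1, 3 and 9, or 5.75% ± 2.48. Together the pair held 0.540%, 0.593% and 0.795% of all normalized counts in mice 1, 3 and 9, an average of 0.642% ± 0.134. Unequal capture of different ends in library making affects comparisons between miRNAs, and its part here was not tested.

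Both 3p strands belonged to the abundant minority of the table. miR-107-3p ranked 95, 90 and 112 of 1251 in mice 1, 3 and 9, and 98 by its mean. miR-103-3p ranked 33, 31 and 24, and 30 by its mean. Between the pair's mean levels lay 67 other miRNAs. Across the table, 22.9% of miRNAs (287 of 1251) were above the floor in all mice. miR-107-3p at 9.68 ± 0.48 log2 units lay next to, and miR-103-3p at 13.81 ± 0.33 above, the median of 9.71 for the 194 miRNAs that averaged 100 normalized counts or more.

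None of the 5p strands of these hairpins was seen. miR-107-5p, miR-103-1-5p and miR-103-2-5p were listed at the floor of 3.32 in all 3 mice, so no ratio between strands can be given. The 5p strands are nearly as alike as the 3p strands. Relative to miR-103-1-5p, miR-103-2-5p carries G1A and miR-107-5p carries G1A and C16U, counted from 1 at the 5′ end. A 5p strand at the floor was common: of 94 hairpins whose 3p strand averaged 100 normalized counts or more, 32 (34.0%) had a 5p strand at the floor in all mice, these 3 among them.

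Strand preference was fitted in all 165 hairpins with both strands listed and the larger strand at a mean of at least 100. By limma's moderated one-sample test of the log2 difference between strands, two-sided, with Benjamini-Hochberg adjustment over the 165, the 3p strand was higher in 72 (43.6%) and the 5p strand in 90 (54.5%). In 68 of the 165 1 strand was listed at the floor in every mouse, the miR-107 hairpin and both miR-103 hairpins among them. For such hairpins the level filter and the constant floor fix the call, so no p-value is given for these 3 and nothing is read from it. The counts of 72 and 90 include such hairpins. Hairpins that share their mature strands, such as both miR-103 hairpins with their 3p row, also enter more than once. The counts are therefore not of independent hairpins.

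The spread between mice was moderate for both strands. The SD of miR-107-3p, 0.48 log2 units, was exceeded by 32 of the 194 miRNAs tested, and that of miR-103-3p, 0.33, by 58. The median SD was 0.22. Without mouse 9 the SD was 0.19 for miR-107-3p and 0.087 for miR-103-3p. miR-107-3p was lower in mouse 9 than in mouse 3 by -0.93 log2 units, a size that 18 of the 194 exceeded, and lower than in mouse 1 by -0.66, which 33 exceeded. miR-103-3p was higher in mouse 9 than in mouse 3 by 0.49, which 45 exceeded, and than in mouse 1 by 0.62, which 39 exceeded. Mouse 3 and mouse 1 differed by 0.27 for miR-107-3p and 0.12 for miR-103-3p, sizes that 93 and 143 of the 194 exceeded.

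**Figure D2:**
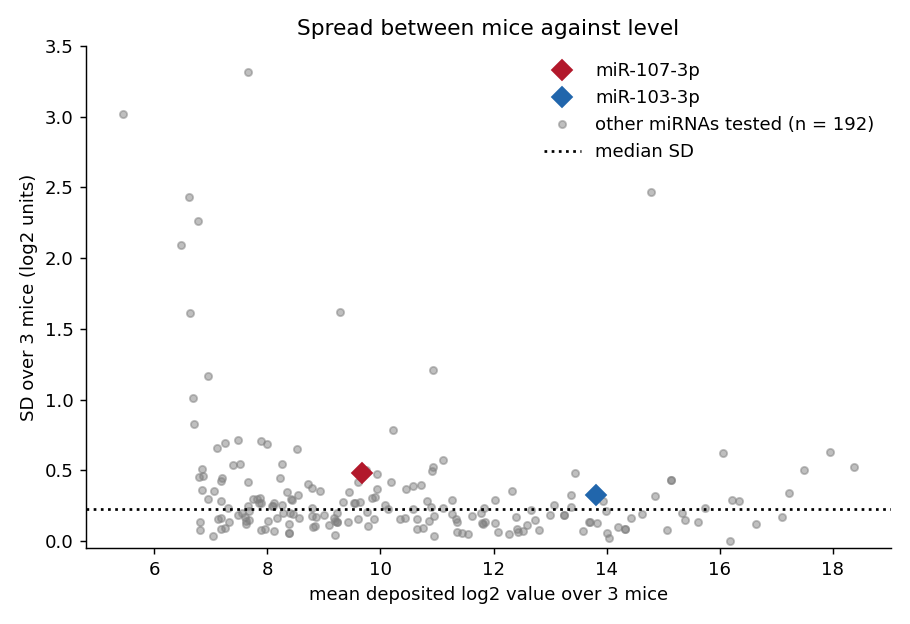
SD over the 3 mice (y axis, log2 units) against the mean deposited log2 value (x axis) for the 194 miRNAs that averaged 100 normalized counts or more; diamonds are miR-107-3p and miR-103-3p, grey points the others and the dotted line the median SD of 0.22. miR-107-3p at 0.48 and miR-103-3p at 0.33 lie above the line but far below the widest spread.

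Neither strand was called as more variable than other miRNAs of its level. In limma's variance test against a trended prior, the adjusted p (Benjamini-Hochberg over 194) was 0.918 for miR-107-3p and the same for miR-103-3p. The test called 0% of the 194 miRNAs, with 7 at an unadjusted p below 0.05, so it separated no miRNA in the table. With limma's robust prior it called 2 of 194, neither of them in the pair (adjusted p = 0.920 for each). When each column is sorted, the values at any rank differ by at most 0.34 log2 units between mice, so larger shifts between mice go with shifts of rank: miR-107-3p moved over 22 places between mouse 3 and mouse 9, and miR-103-3p over 7.

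Pairs that differ by a single base give a scale for the gap, a comparison chosen after the pair's values were seen. Among 168 miRNAs past the level filter with a RefSeq sequence, 11 pairs of equal length differed at 1 base. Taken as the lower minus the higher member, miR-107-3p and miR-103-3p had the second largest gap of the 11, -4.13 log2 units, after miR-29c-3p minus miR-29a-3p at -4.81. let-7e-5p minus let-7a-5p followed at -3.83, and the median over the 11 pairs was -2.22. The SD of the gap over the mice, 0.78, was also second of the 11, after 0.82 for miR-10a-5p minus miR-10b-5p, and the median SD was 0.18. Both places rest on mouse 9, where the gap was widest. Without that mouse miR-107-3p minus miR-103-3p averaged -3.68, a smaller gap than the -3.78 of let-7e-5p minus let-7a-5p, and its SD of 0.11 was the median of the 11 pairs. In this pair 1 base follows the differing position, the fewest among the 11 pairs, against 2 for the miR-27 pair and 3 for let-7a-5p with let-7c-5p. The pair therefore rests more than the others on reads that reach the 3′ end, and the effect of this on the gap was not tested.

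**Figure D3:**
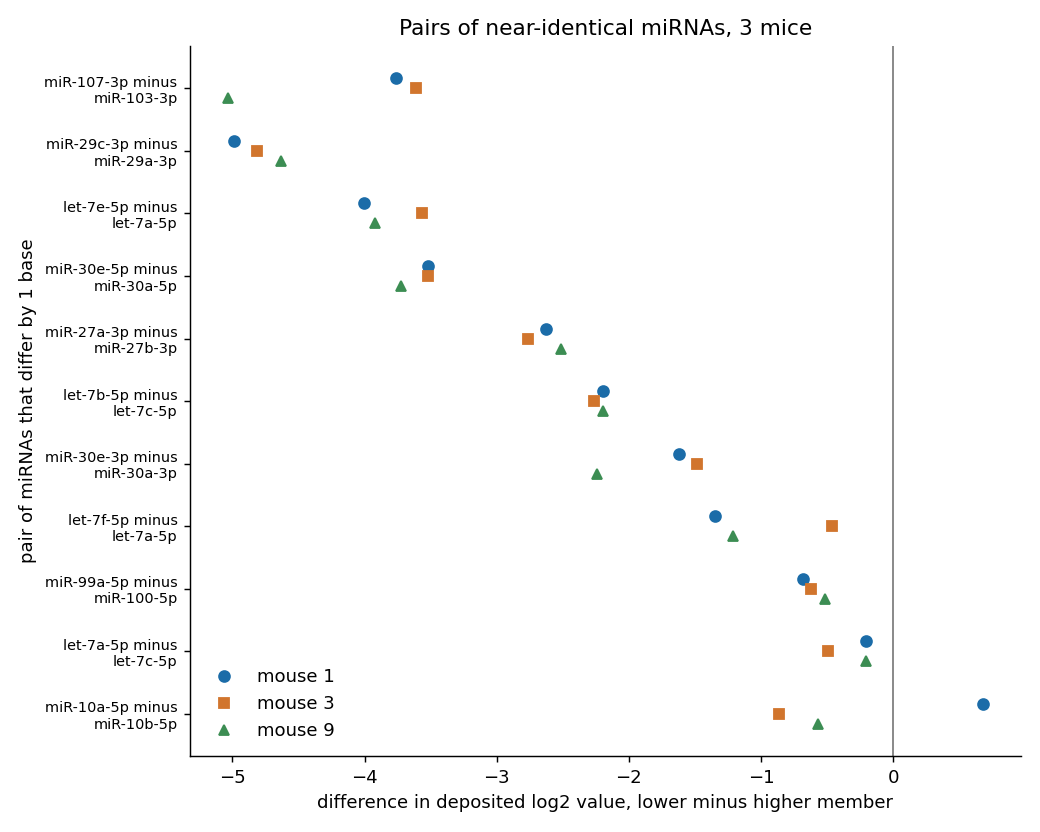
Difference in deposited log2 value, lower minus higher member (x axis), in mice 1, 3 and 9 for the 11 pairs of abundant miRNAs that differ at 1 base (y axis). miR-107-3p minus miR-103-3p spans -5.03 to -3.61, with mouse 9 apart from the other 2 mice, while most pairs keep the 3 mice close together.

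The miR-15 and miR-16 group, known for restraining cell division, carries nearly the same 5′ letters moved by 1 base. They are printed for that overlap, with bases 2 to 8 in capitals.
miR-107-3p: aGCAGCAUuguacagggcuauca
miR-16-5p: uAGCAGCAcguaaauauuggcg
miR-497-5p: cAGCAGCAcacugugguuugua
miR-322-5p: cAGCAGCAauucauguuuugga
miR-195a-5p: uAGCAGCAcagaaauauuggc
miR-15a-5p: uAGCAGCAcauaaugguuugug
miR-15b-5p: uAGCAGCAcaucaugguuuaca
miR-503-5p: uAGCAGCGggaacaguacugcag
The row miR-497-5p was matched to RefSeq's miR-497a-5p. The letters AGCAGC begin the miR-107-3p and miR-103-3p strands and stand at bases 2 to 7 in 11 RefSeq names, among them all 7 of the group. The seeds of the group therefore differ from that of the pair while overlapping it.

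In this ordering by mean level miR-103-3p lay near the top of the group and miR-107-3p near the bottom. miR-103-3p averaged 13.81 ± 0.33 log2 units and stood below miR-16-5p (14.32 ± 0.08) in 3 of 3 mice, miR-103-3p minus miR-16-5p being -0.51 ± 0.33 (SD, n = 3). In mouse 9 that difference was only -0.13. miR-103-3p stood above the next, miR-497-5p (11.82 ± 0.24), in 3 of 3 mice by 1.99 ± 0.45.

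miR-497-5p stood above miR-322-5p (11.36 ± 0.07), that above miR-195a-5p (10.91 ± 0.49) and that above miR-15a-5p (10.35 ± 0.16), each in 3 of 3 mice. miR-15a-5p was above miR-15b-5p (10.19 ± 0.42) in 1 of 3 mice, so their order did not hold. miR-107-3p was below miR-15b-5p in 2 of 3 mice, with a difference of -0.52 ± 0.83, which is within the spread. It was below miR-15a-5p in 3 of 3 mice, by -0.67 ± 0.41. miR-503-5p, the last of the group, was listed at the floor in all mice. No test was made on these orders. Summed, miR-107-3p with miR-103-3p held 0.642% ± 0.134 of all normalized counts, against 1.30% ± 0.0386 for the 7 members of the group.

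**Figure D4:**
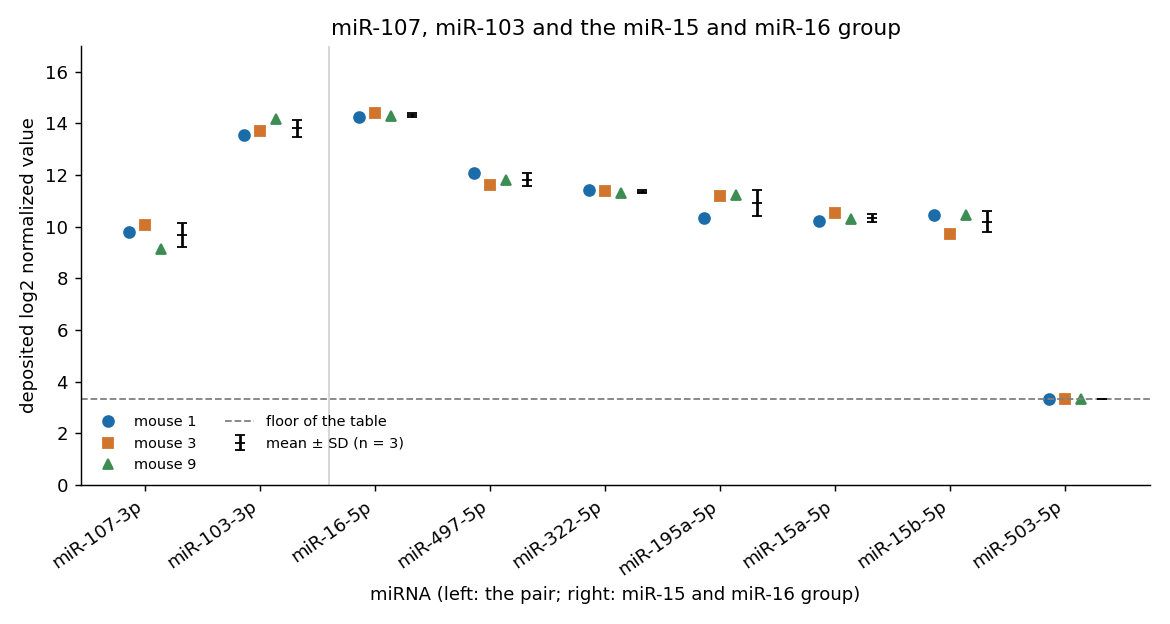
Deposited log2 normalized value (y axis) of miR-107-3p, miR-103-3p and, to the right of the grey line, the 7 members of the miR-15 and miR-16 group (x axis) in mice 1, 3 and 9, with mean and SD. By mean, miR-103-3p at 13.81 lies just under miR-16-5p at 14.32, and miR-107-3p at 9.68 under all but miR-503-5p, which is on the dashed floor. In mouse 3 miR-107-3p lies above miR-15b-5p.

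Other miRNAs reported to lower insulin sensitivity, insulin signalling or glucose uptake were mostly present beside the pair. Of 27 listed, 22 (81.5%) exceeded the floor in every mouse, against 22.9% of the table. The median of the 27 was 12.43 log2 units, against 3.32 for the table. 18 of the 27 had a higher mean than miR-107-3p and 10 a higher mean than miR-103-3p. The highest were miR-143-3p (17.10 ± 0.17), which impairs insulin-stimulated AKT activation in mouse liver, followed by 3 let-7 members, which repress the insulin receptor and its substrate. Of these let-7c-5p averaged 16.65 ± 0.12, let-7a-5p averaged 16.34 ± 0.28 and let-7f-5p averaged 15.34 ± 0.20. miR-802-5p, miR-96-5p, miR-155-5p, miR-33-5p and miR-135a-5p were listed at the floor in all mice.

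Each of the 6 miRNAs reported to raise insulin sensitivity exceeded the floor in every mouse, against 22.9% of the table. Their median was 12.40 log2 units, against 3.32 for the table. Both insulin lists were chosen with earlier results of these data known, so nothing is read from these excesses. Of the 6, 4 had a higher mean than miR-107-3p and 1 a higher mean than miR-103-3p. miR-26a-5p led with 17.95 ± 0.63, followed by miR-21a-5p (13.70 ± 0.14), miR-26b-5p (12.99 ± 0.19) and miR-181b-5p (11.81 ± 0.12), which acts in the endothelium of fat. The 0.642% ± 0.134 of all normalized counts held by miR-107-3p with miR-103-3p compares with 12.3% ± 5.32 for these 6 and 22.5% ± 0.827 for the 27. Most of the share of the 6 was miR-26a-5p, at 11.2% ± 5.33. It held 17.4% in mouse 1 and 8.15% in each of mice 3 and 9.

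**Figure D5:**
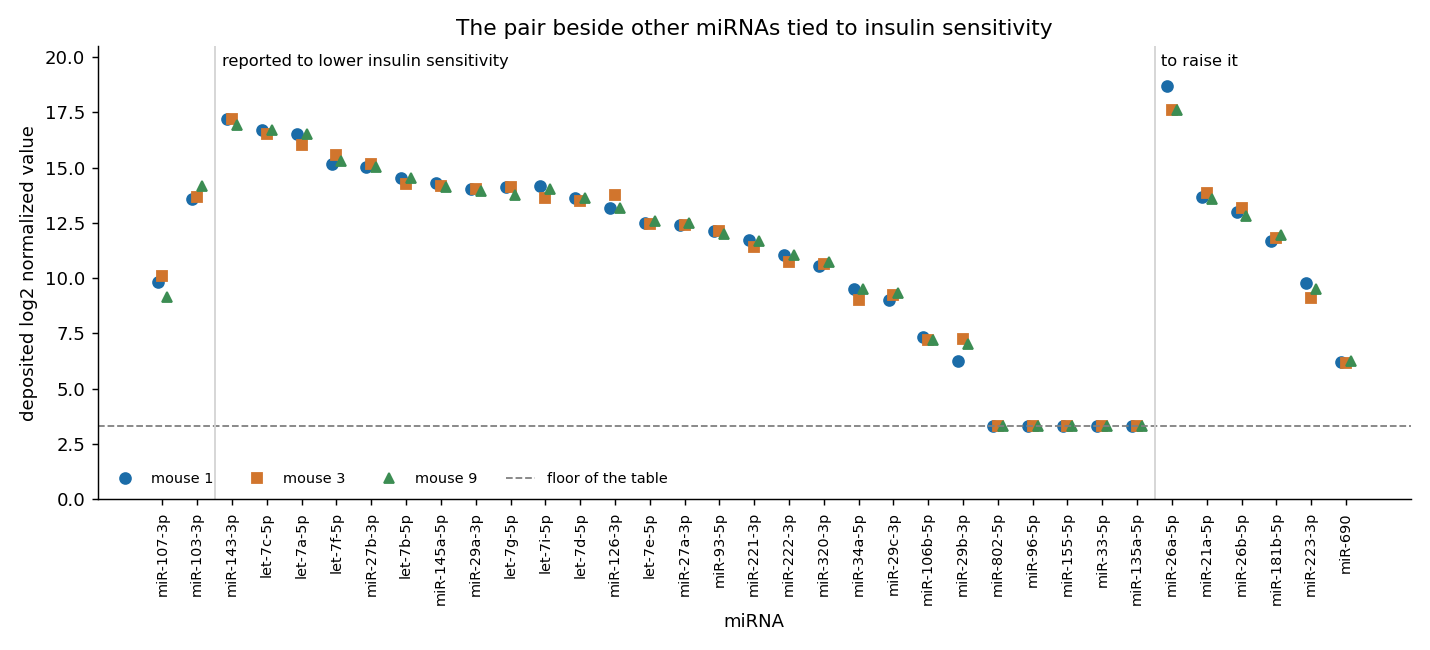
Deposited log2 normalized value (y axis) in mice 1, 3 and 9 of miR-107-3p and miR-103-3p, of 27 other miRNAs reported to lower insulin sensitivity and of 6 reported to raise it (x axis, sorted by mean within each list); the dashed line is the floor. miR-103-3p at 13.81 sits among the let-7 and miR-29a levels, miR-107-3p at 9.68 lies lower, and 5 of the 27 are on the floor.

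The caveolin-1 messenger RNA carries the letters that pair with the seed of both miRNAs. Its longest annotated 3′ untranslated region (1998 bases) holds a single stretch ATGCTGCA, the complement of bases 2 to 8 followed by an A. It is shown in capitals in its surroundings, on the plus strand of GRCm38 at chr6:17341255-17341282.
Cav1: ttttacacttttttATGCTGCAtgtcct
Only the transcript strand was searched. The shorter form ATGCTGC, which lies inside it, occurred nowhere else in this region. Among 1391 genes with a 3′ untranslated region within 10% of that length, 4.89% hold ATGCTGCA and 16.2% hold ATGCTGC. A match is a description of letters and no measure of repression.

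Other miRNAs reported to target caveolin-1 were present too. miR-133a-3p, a striated muscle miRNA, had 11.94, 16.38 and 16.02 log2 units in mice 1, 3 and 9. miR-199a-5p, a fibroblast miRNA, averaged 10.43 ± 0.16 and the epithelial miR-203-3p 9.54 ± 0.27 (SD, n = 3). miR-107-3p lay below the first 2 of these by mean, and miR-103-3p below miR-133a-3p alone.

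Among other miRNAs in introns of adipocyte or lipid genes and of the CTD phosphatase genes, 4 of 5 were above the floor in all mice. The share over the table was 22.9%. miR-378a-3p, within the coactivator gene Ppargc1b, averaged 16.07 ± 0.63, and miR-335-5p, within the imprinted Mest gene, 6.71 ± 0.82. The other strand of that hairpin, miR-335-3p, was not part of this list but was the higher one, at 10.57 ± 0.39. miR-26a-5p and miR-26b-5p, from Ctdsp genes, are given above, and miR-33-5p of Srebf2, the cholesterol regulator, was at the floor. By mean, miR-107-3p lay below 3 of the 5 and miR-103-3p below 2, and miR-107-3p also below miR-335-3p.

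The miRNAs closest to the pair were found by Euclidean distance over the 3 log2 values, a likeness in level and in pattern over 3 mice only. Nearest to miR-107-3p were miR-30e-3p (distance 0.37), miR-203-3p (0.49), miR-204-5p (0.55), miR-142-5p (0.60) and miR-192-5p (0.78). Of these 5, 3 had the same order of mice as miR-107-3p, namely miR-30e-3p (9.59, 9.80 and 9.27 in mice 1, 3 and 9), miR-203-3p (9.42, 9.85 and 9.35) and miR-192-5p (10.08, 10.34 and 9.83). Nearest to miR-103-3p were miR-151-3p (0.40), let-7d-5p (0.58), miR-92a-3p (0.60), miR-125b-5p (0.62) and miR-29a-3p (0.63), and 0 of these 5 had its order of mice. The neighbours were picked on these same 3 values, and the share of all miRNAs with each order was not counted. Nothing is therefore read from either count of order. The pair itself lay much further apart, since miR-107-3p and miR-103-3p differed by -3.61 log2 units in the mouse where they were closest.

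Markers of the tissue and of other cell types varied between the mice alongside the pair. The marker lists were chosen with earlier results of these data known, so nothing is read from their counts above the floor. Over the table, 22.9% of miRNAs (287 of 1251) were above it in all mice. All 6 adipocyte lineage miRNAs exceeded the floor in every mouse, and their summed share was 13.4%, 15.2% and 11.1% in mice 1, 3 and 9. Mouse 9, with the lowest miR-107-3p and the highest miR-103-3p, was lowest in this share. Its members did not all go that way. miR-143-3p, miR-30c-5p, miR-378a-3p and miR-193b-3p were lowest in mouse 9, while miR-30a-5p was equal in all mice. miR-365-3p was highest in mouse 9, with 11.51, 11.51 and 11.60 log2 units in mice 1, 3 and 9. Mouse 9 was also lowest in the 7 epithelial miRNAs, 4 of them above the floor in all mice, with shares of 0.0692%, 0.157% and 0.0378%. The 7 striated muscle miRNAs, with 2 above the floor in all mice, held 0.163%, 3.57% and 2.79%, nearly all of it miR-133a-3p. The other of those 2, miR-133b-3p, had 3.83, 9.49 and 9.65 log2 units in mice 1, 3 and 9. miR-1a-3p had only 3.32, 5.53 and 3.44. miR-206-3p and miR-208b-3p exceeded the floor in 1 mouse each, and miR-208a-3p and miR-499-5p in none. The summed share is therefore no general striated muscle signal. The 6 leukocyte miRNAs (4 above the floor, miR-155-5p at it) held 0.390%, 0.378% and 0.405%, highest in mouse 9. Most of this sum was miR-150-5p, with 0.298%, 0.283% and 0.316%. Like it, miR-146a-5p was highest in mouse 9. In contrast, miR-142-5p was highest in mouse 3, and miR-223-3p and miR-142-3p in mouse 1. The sum is therefore no general leukocyte signal. The 4 erythroid ones (3 above the floor) held 2.39%, 1.51% and 1.38%, lowest in mouse 9, and the 2 endothelial ones 0.618%, 0.884% and 0.653%. Their part in the mouse 9 values of miR-107-3p and miR-103-3p was not tested. In whole tissue, fewer cells of a type and less of a miRNA per cell cannot be told apart.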

How the data were processed

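Small RNA libraries were made from total RNA of frozen fat, per the labels' protocols. The deposited values are log2 normalized values, 1 per mature miRNA and mouse. Per the series' design text, the authors used the Gunaratne pipeline and mouse build mm10, scaled counts to usable reads and added 40. Which aligner and which miRNA annotation were used is not given in the sources used here. On the linear scale the floor is 10, with 260 values above it and below 40, so the constant was taken as 10. Of the top 100 ranks, 85 hold equal values in the 3 mice (within 1e-06), a pattern that no source used here describes. For example, 13.56 log2 units is the value of miR-103-3p in mouse 1, miR-151-3p in mouse 3 and miR-21a-5p in mouse 9. At such ranks the deposited value follows from the rank of a miRNA in its mouse. The same holds for the normalized counts and shares computed from it, which are no direct measure of abundance. The depth of each library is unknown, so no counting interval is given.

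Linear values are the power of 2 minus 10. Tests used limma 3.58.1 in R 4.3.3, with Benjamini-Hochberg adjustment at 0.05, and Python 3.11.15, and were tried on simulated data. The miRNAs, lists and tests were chosen with earlier results of these data known. Named by rule were all miR-107, miR-103 and miR-15 and miR-16 rows, the 4 highest and all floor members of other lists, and the 5 nearest miRNAs to each strand. For marker lists the sums were given instead. RefSeq sequences (GRCm38.p6) matched 1010 of 1251 rows. GENCODE M21 is on GRCm38, the assembly of mm10. Alternatives were a constant of 1 or 40, median-ratio scaling, other level filters, other priors, other detection limits and leaving out each mouse.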

Additional observations from a re-analysis of the deposited data

How the results depend on the processing

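The gap of miR-107-3p to miR-103-3p was -4.15 to -4.08 log2 units with a constant of 1 or 40 and with median-ratio scaling. Without each mouse it was -4.40 to -3.68. Its direction could not change in these runs, so no support is drawn from that. Scaling a mouse shifts both strands nearly alike, and these constants cannot reorder such unequal values. The difference was negative in each mouse, so leaving out 1 cannot turn the sign. Both levels moved by less than their SD between mice in these runs. Leaving out 1 of 3 values cannot move a mean by that much. The constants are small beside both levels, so neither kind of run could show a larger move. With a level filter of at least 1000, 36 hairpins had the 3p strand higher and 57 the 5p strand, since 93 hairpins were left, and miR-107 was no longer among them. The variance test called 2 miRNAs with the robust prior and 0 in the other runs. Its count at an unadjusted p below 0.05 was 12 with the robust prior, 2 with the filter of 1000 and 1 to 2 without each mouse. Neither strand of the pair was called in any run that tested it. miR-107-3p fell below the filter of 1000 and was not tested in that run. Counts of list members above the floor stayed within 1.5 times. The trended models could not be fitted without a level filter. No paired analysis was possible because pairing of samples needs a second group and there is 1; differences within each mouse are given with the results. Since depth is unknown, a 5p strand at the floor was not detectable, and may still be present.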
